A study of Homo sapiens with 6 samples.

Results

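Triglyceride synthesis and lipolysis were followed here through 10 genes: the glycerolipid acyltransferases GPAM, AGPAT1, AGPAT2, AGPAT3, DGAT1 and DGAT2, the lipins LPIN1 and LPIN2, and the lipases PNPLA2 and PNPLA3. They were taken by symbol from the 60564 gene rows of the count table, 1 row per symbol, and all 10 passed the filter on low counts. The first 8 were treated as the synthesis side and the 2 lipases as the breakdown side. RNA sequencing measured 6 libraries of HepG2 with the genotype label WT. HepG2 is a human hepatoma cell line that retains much of the hepatocyte's lipid and lipoprotein metabolism. Control libraries (n = 3) came from cells in DMEM medium with no named solvent control and no stated culture time. Formononetin libraries (n = 3) came from cells given this methoxylated plant isoflavone for 72 h, at a dose the labels write as 625 μm. All cells shared the same serum-containing medium with antibiotics. Whether replicates were separate cultures is not stated, and every p-value here therefore measures the spread between libraries, which may be technical.

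Liver cells build triglyceride on a glycerol backbone by the Kennedy pathway. A glycerol-3-phosphate acyltransferase such as GPAM adds the first fatty acid, an AGPAT adds the next to give phosphatidic acid, a lipin removes the phosphate to give diacylglycerol, and a DGAT adds the last fatty acid. The product is stored in lipid droplets or exported in very low density lipoprotein, and the lipase PNPLA2 (ATGL) opens its breakdown by releasing the first fatty acid.

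Counts on gene rows ranged from 30848848 to 45682722 per library, and the member with the fewest, AGPAT2, still had 246 to 718. With formononetin 2659 (12.0%) of the 22230 tested genes had a raised and 1937 (8.71%) a lowered level, 20.7% in all, at an adjusted p under 0.05. Adjusted p-values here and below come from edgeR's quasi-likelihood test with Benjamini-Hochberg adjustment over those genes. Under upper quartile scaling the split was 1813 raised and 2737 lowered. All 8 hepatocyte markers were detected and summed to 22469 to 23155 CPM in control and 16427 to 17051 CPM in formononetin libraries, with ALB, TF, TTR, SERPINA1 and AFP lowered and APOA2 and HNF4A raised. CPM are counts scaled to a common library size after TMM normalization. Of the listed markers of other cell types, ADIPOQ (adipocytes), PTPRC (leukocytes), COL1A2, COL3A1 and DCN (fibroblasts) and TEK (endothelium) were at 0 in all 6 libraries. Others of the same lists had counts. The listed markers summed, in control and formononetin libraries, to 5.06 to 6.22 and 12.9 to 17.5 CPM for adipocytes, where CIDEC alone went from 3.27 to 11.6 CPM, and to 1201 to 1294 and 977 to 1014 CPM for macrophages, mostly LYZ. CD68, another macrophage marker, went the other way from that sum, from 3.35 ± 0.832 to 6.73 ± 1.31 CPM (1.01 ± 0.23, adjusted p = 0.0204). Markers summed to 12.9 to 15.1 and 3.82 to 4.59 CPM for fibroblasts, and to 22.1 to 25.6 and 24.0 to 28.2 CPM for endothelium. The fibroblast sum was mostly PDGFRB, which fell from 13.3 ± 1.11 to 4.04 ± 0.361 CPM (-1.72 ± 0.12, adjusted p = 0.000229). The endothelial sum was mostly PECAM1, at 23.2 ± 1.57 and 25.8 ± 2.39 CPM and not called (adjusted p = 0.299). The part of all these markers in the results was not tested. Control replicate 1 stood apart on the second principal component (47.3 against -21.5 and -25.4 for the other controls), and results that rest on it are given with and without it.

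With formononetin, 6 of the 8 synthesis genes were called raised and none lowered, and PNPLA2 of the breakdown side was called lowered. GPAM, AGPAT1, AGPAT2, AGPAT3, LPIN1 and DGAT2 rose, with log2 fold changes from 0.21 to 0.79. PNPLA2 fell by 0.50 on the log2 scale, while LPIN2, DGAT1 and PNPLA3 did not pass the test. Among all genes tested 12.0% were raised and 8.71% lowered, and the median log2 fold change was -0.01 against 0.23 over the 10 members. The rises of GPAM and the 3 AGPAT genes and the fall of PNPLA2 passed the test in all 19 alternative settings. The calls of LPIN1 and DGAT2 were lost in 11 and 7 of them. Formononetin libraries lay wholly above the controls for 6 members and wholly below for 2, 8 of 10 in all, where 20.8%, 18.7% and 39.4% of all genes did so. Less RNA per cell and fewer cells of a kind cannot be told apart in such bulk libraries.

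**Figure D1:**
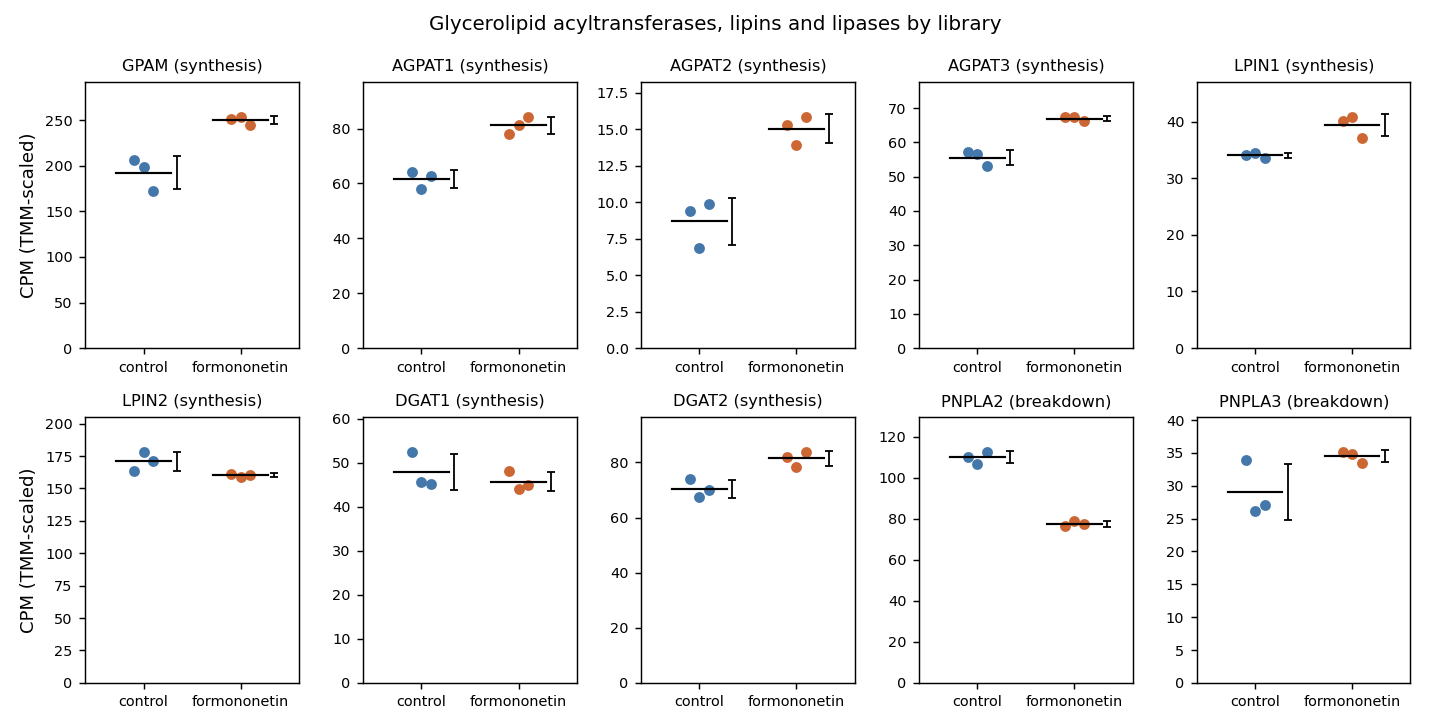
Transcript level of each of the 10 genes in CPM on the vertical axes, 1 panel per gene, with dots for the 3 control and 3 formononetin libraries, bars for the group means and whiskers for the SD. GPAM, AGPAT1, AGPAT2, AGPAT3, LPIN1 and DGAT2 sit higher in every formononetin library than in any control library, PNPLA2 and LPIN2 sit lower, and DGAT1 and PNPLA3 overlap.

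Promoter sequences of 3 members are shown because they mark the ends of the pattern: GPAM opens the pathway, AGPAT2 rose most and PNPLA2 fell. Each is the 250 bases before a transcript start in RefSeq (GRCh38.p14), 5′ to 3′ on the gene's strand. They lie at chr10:112183766-112184015 (minus strand), chr9:136687458-136687707 (minus strand) and chr11:818664-818913 (plus strand). The GPAM window lies inside the gene as GENCODE 29 draws it, since that model extends further upstream. Capitals mark matches, on either strand, to 7 motifs searched: the sterol regulatory element TCACNCCAC, the E-box CACGTG, the forkhead box O motif TGTTTAC, the xenobiotic response element TNGCGTG, the antioxidant response element TGACNNNGC, the GC box GGGCGG and the TATA box TATAAA.
GPAM: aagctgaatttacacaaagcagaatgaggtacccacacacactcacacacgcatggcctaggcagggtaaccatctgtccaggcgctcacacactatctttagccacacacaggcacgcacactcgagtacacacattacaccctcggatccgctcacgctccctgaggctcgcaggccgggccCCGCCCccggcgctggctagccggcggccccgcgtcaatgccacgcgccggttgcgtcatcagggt
AGPAT2: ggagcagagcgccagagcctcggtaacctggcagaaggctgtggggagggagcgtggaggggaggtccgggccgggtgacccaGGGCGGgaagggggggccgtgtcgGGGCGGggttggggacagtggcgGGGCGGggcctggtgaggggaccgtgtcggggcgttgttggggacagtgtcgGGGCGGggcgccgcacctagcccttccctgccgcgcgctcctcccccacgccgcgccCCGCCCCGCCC
PNPLA2: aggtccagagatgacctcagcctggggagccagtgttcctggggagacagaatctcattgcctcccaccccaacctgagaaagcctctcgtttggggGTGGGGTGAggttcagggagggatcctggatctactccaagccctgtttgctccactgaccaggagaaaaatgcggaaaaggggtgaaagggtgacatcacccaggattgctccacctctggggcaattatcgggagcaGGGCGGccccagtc
The AGPAT2 window was the richest of the 3 in G and C, at 77.6% against 62% for GPAM and 58.4% for PNPLA2 (median of all 35116 promoters 58%). It held GC boxes and no other motif of the search. The GPAM window held 1 GC box. The PNPLA2 window held 1 GC box and 1 sterol regulatory element match, which starts 153 bases before that start on the opposite strand. Of all promoters, 42.6% held the GC box and 0.883% the sterol element. The shares were 6.34% for the E-box, 2.98% for the forkhead motif, 4.52% for the xenobiotic element, 10.9% for the antioxidant element and 10.7% for the TATA box. RefSeq entries were used for 7 members with 15 promoters (all but DGAT1, DGAT2 and PNPLA3). Among the other 12 windows, 1 of LPIN2 held an E-box, 1 of LPIN1 an antioxidant element and 1 of AGPAT1 a TATA box. These are matches of letters and not measured binding sites.

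At the first acylation step GPAM, the mitochondrial glycerol-3-phosphate acyltransferase (ENSG00000119927, chromosome 10, 112149864 to 112215377, minus strand, GRCh38), was at 206, 199 and 172 CPM in control replicates 1 to 3. In formononetin replicates 1 to 3 it was at 251, 254 and 245 CPM. All formononetin libraries lay above all controls, and control replicate 3 was lowest. The means were 193 ± 18.1 and 249.9 ± 4.53 CPM (SD, n = 3), a log2 fold change of 0.38 ± 0.07 (standard error, adjusted p = 0.00900). Its relatives of the endoplasmic reticulum also rose. GPAT3 went from 17.4 ± 2.41 to 35.6 ± 1.14 CPM (1.03 ± 0.10, adjusted p = 0.000869) and GPAT4 from 88.8 ± 2.02 to 107 ± 1.01 CPM (0.26 ± 0.04, adjusted p = 0.00513). GPAT2, the remaining enzyme of this step, had 0 counts in every library.

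AGPAT enzymes turn lysophosphatidic acid into phosphatidic acid, and AGPAT1, AGPAT2 and AGPAT3 rose. Of the AGPAT genes outside the members, AGPAT4 (6.07 ± 0.402 and 6.30 ± 0.261 CPM, 0.05 ± 0.11, adjusted p = 0.780) and AGPAT5 (28.6 ± 5.62 and 34.9 ± 14.3 CPM, 0.28 ± 0.32, adjusted p = 0.595) were not called and their groups overlapped. AGPAT2 (ENSG00000169692, chromosome 9, 136673143 to 136687423, minus strand), the isoform whose loss causes congenital generalised lipodystrophy, was at 9.38, 6.87 and 9.85 CPM in the controls. In formononetin libraries it was at 15.3, 13.9 and 15.9 CPM. Every formononetin library was above every control, and control replicate 2 was the lowest of the 6. The change from 8.70 ± 1.6 to 15 ± 0.984 CPM gave a log2 fold change of 0.79 ± 0.15 (adjusted p = 0.00911), larger than that of 91.6% of all genes tested in absolute size. It was the largest change among the 10 members, and lay between 0.65 and 0.89 when 1 library was left out.

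AGPAT1 (ENSG00000204310, chromosome 6, 32168212 to 32178096, minus strand), a broadly expressed isoform of the endoplasmic reticulum, was at 64.3, 57.9 and 62.8 CPM in control and 77.9, 81.3 and 84.2 CPM in formononetin libraries. The groups did not overlap, and the log2 fold change was 0.40 ± 0.06 (adjusted p = 0.00396). Its exons share 1087 of 3631 bases with PPT2-EGFL8 on the opposite strand, and although the kit was stranded, the strand setting of the counting is not given. Summed with the 3 genes that overlap it, the change was 0.23 (adjusted p = 0.0130). AGPAT3 (ENSG00000160216, chromosome 21, 43865186 to 43986536, plus strand), an isoform that also uses polyunsaturated acyl-CoA, was at 57.1, 56.5 and 53.2 CPM in control. It was at 67.2, 67.4 and 66.1 CPM in formononetin libraries, again without overlap (0.27 ± 0.05, adjusted p = 0.00968). Per exon length, AGPAT2 made up 18 ± 2.32% of the summed transcript of AGPAT1, AGPAT2 and AGPAT3 in control and 22.8 ± 1.19% in formononetin libraries (n = 3), and the 6 values did not overlap between groups. No test was made on such shares and ratios among members, since the members were chosen with earlier results known.

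At the phosphatase step 1 of the 2 lipin members was called, and the difference between the lipins was not tested. LPIN1 (ENSG00000134324, chromosome 2, 11677595 to 11827409, plus strand), a phosphatidate phosphatase that also acts as a transcriptional coactivator, was at 34.1, 34.5 and 33.6 CPM in control and 40.05, 40.8 and 37.2 CPM in formononetin libraries. The groups did not overlap, and the log2 fold change was 0.21 ± 0.06 (adjusted p = 0.0466). The call was lost without any 1 of the 6 libraries (adjusted p from 0.0543 to 0.141) and in 5 other settings. LPIN2 (ENSG00000101577, chromosome 18, 2916994 to 3013315, minus strand), a lipin with high expression in liver, was at 164, 178 and 171 CPM in control and 161, 159 and 161 CPM in formononetin libraries. Every formononetin library lay below every control, but the difference was small and did not pass the test (-0.09 ± 0.04, adjusted p = 0.189, 95% interval -0.20 to 0.01). It was called lowered under upper quartile scaling (-0.17, adjusted p = 0.0318). The level of LPIN2 per exon length was 8.77 ± 0.335 times that of LPIN1 in control and 7.12 ± 0.382 times in formononetin libraries. LPIN3, the third lipin, was at 33.1 ± 3.25 and 34.6 ± 2.77 CPM and was not called (0.06 ± 0.09, adjusted p = 0.684).

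The final acylation is carried out by DGAT1 and DGAT2, enzymes with no sequence relation, of which DGAT2 is linked to fatty acids newly made in the cell and DGAT1 to those taken up or recycled. DGAT2 (ENSG00000062282, chromosome 11, 75759512 to 75801535, plus strand) was at 73.9, 67.4 and 70.0 CPM in control and 82.1, 78.5 and 83.9 CPM in formononetin libraries. The groups did not overlap, and the log2 fold change was 0.21 ± 0.05 (adjusted p = 0.0328). This call was lost without control replicate 2 or 3 or any 1 of the 3 formononetin libraries (adjusted p from 0.0546 to 0.121), under upper quartile scaling and with a replicate block. DGAT1 (ENSG00000185000, chromosome 8, 144314584 to 144326910, minus strand) was at 52.5, 45.8 and 45.2 CPM in control and 48.2, 44.0 and 45.1 CPM in formononetin libraries. Its groups overlapped, control replicate 1 was highest, and it was not called (-0.06 ± 0.08, adjusted p = 0.614, 95% interval -0.24 to 0.11). Without control replicate 1 the value was 0.0088. The ratio of DGAT2 to DGAT1 per exon length was 0.735, 0.770 and 0.809 in control and 0.890, 0.931 and 0.972 in formononetin libraries.

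On the breakdown side the lipases did not move together. PNPLA2, the rate-limiting triglyceride lipase of most tissues (ENSG00000177666, chromosome 11, 818902 to 825573, plus strand), was at 110.3, 107 and 113 CPM in control. It was at 76.3, 79.1 and 77.4 CPM in formononetin libraries, all far below the lowest control. The means of 110 ± 2.88 and 77.6 ± 1.41 CPM gave a log2 fold change of -0.50 ± 0.04 (adjusted p = 0.000522), and leaving out 1 library kept it between -0.52 and -0.49. Of the 10 members it had the smallest adjusted p, and its absolute change exceeded that of 79% of all genes tested.

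PNPLA3 (ENSG00000100344, chromosome 22, 43923739 to 43964488, plus strand) is a close relative of PNPLA2 on lipid droplets, a gene turned on by feeding through SREBP-1c, whereas PNPLA2 is turned on by fasting. It was at 33.9, 26.1 and 27.0 CPM in control and 35.2, 34.8 and 33.4 CPM in formononetin libraries. Control replicate 1 lay inside the range of the formononetin libraries, while the other controls lay below it. PNPLA3 was not called (0.25 ± 0.10, adjusted p = 0.141, 95% interval 0.01 to 0.49), but without control replicate 1 it was, at 0.38 (adjusted p = 0.0135). It shares 148 exon bases with SAMM50 on the same strand, and SAMM50 itself rose (0.30 ± 0.05, adjusted p = 0.00707). The ratio of PNPLA3 to PNPLA2 per exon length was 0.366, 0.290 and 0.285 in control and 0.548, 0.524 and 0.514 in formononetin libraries.

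**Figure D2:**
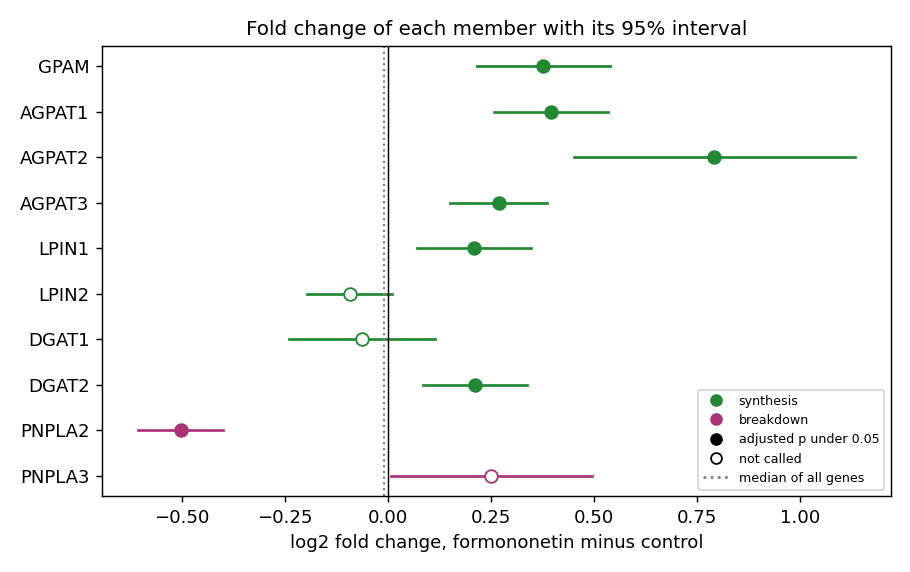
Log2 fold change of formononetin against control for each member in pathway order (horizontal axis), with its unadjusted 95% interval. Filled dots passed the adjusted threshold, open dots did not, and the dotted line is the median of all genes at -0.01. The intervals of GPAM, the 3 AGPAT genes, LPIN1 and DGAT2 lie above 0, as does that of PNPLA3 (0.01 to 0.49), which did not pass the adjusted threshold, and that of PNPLA2 runs from -0.61 to -0.40.

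Levels of different genes were compared per length, as CPM per kilobase of the union of GENCODE 29 exons (RPKM). This union can exceed the transcript in use, which lowers the value of genes with many annotated exons such as LPIN1 (11861 bases) and AGPAT3 (11296 bases). In control the order was PNPLA2 (28.6 ± 0.749 RPKM), LPIN2 (25.2 ± 1.08), GPAM (19.6 ± 1.84), AGPAT1 (17.0 ± 0.923), DGAT1 (11.6 ± 0.988), PNPLA3 (8.98 ± 1.32), DGAT2 (8.91 ± 0.414), AGPAT3 (4.92 ± 0.186), AGPAT2 (4.84 ± 0.890) and LPIN1 (2.87 ± 0.0394). The libraries of GPAM and AGPAT1, of PNPLA3 and DGAT2, and of AGPAT3 and AGPAT2 overlapped between these neighbours, although GPAM lay above AGPAT1 within each control library. With formononetin GPAM came first (25.5 ± 0.462 RPKM), followed by LPIN2 (23.6 ± 0.183), AGPAT1 (22.3 ± 0.874) and PNPLA2 (20.2 ± 0.367). Below these, DGAT1, PNPLA3 and DGAT2 overlapped in turn at means of 11.1, 10.7 and 10.3 RPKM. AGPAT2 (8.37 ± 0.547 RPKM) now lay above AGPAT3 (5.92 ± 0.0600) in all 3 libraries, and LPIN1 stayed last (3.32 ± 0.162).

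**Figure D3:**
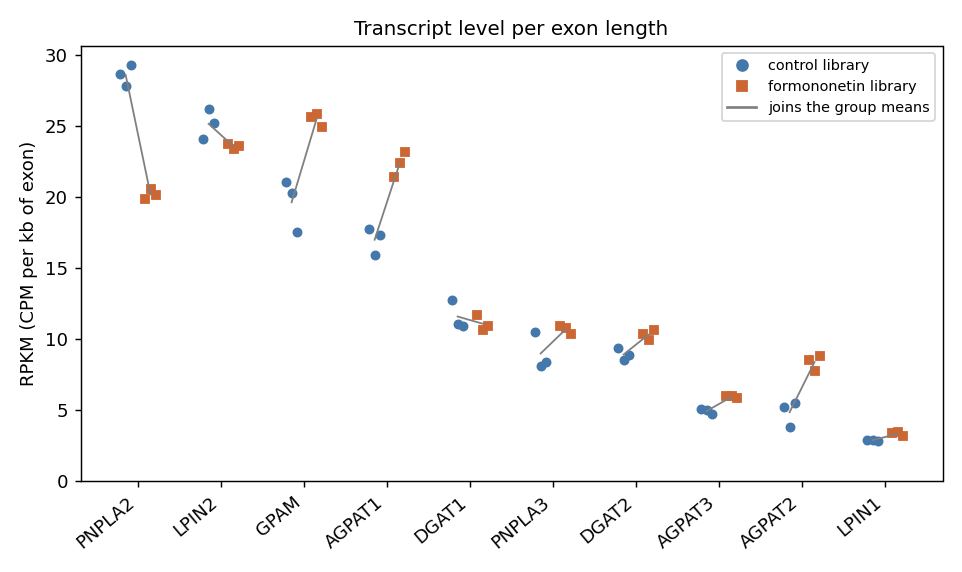
Level of the 10 genes in RPKM (vertical axis), ordered by the control mean, with circles for control libraries, squares for formononetin libraries and lines joining the means. PNPLA2 drops from the highest mean, 28.6 RPKM, to 20.2, below GPAM, LPIN2 and AGPAT1.

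Synthesis was then set against breakdown in each library. The 8 synthesis genes summed to 98.0, 93.8 and 92.9 RPKM in control and 110.7, 109 and 111 RPKM in formononetin libraries. The 2 lipases summed to 39.2, 35.9 and 37.7 RPKM in control and 30.7, 31.4 and 30.5 RPKM in formononetin libraries. The ratio of the sums was thus 2.5, 2.61 and 2.46 in control and 3.60, 3.49 and 3.65 in formononetin libraries, with no overlap. Within the lipase sum the mean of PNPLA2 went from 28.6 to 20.2 RPKM and that of PNPLA3 from 8.98 to 10.7 RPKM, so the lower sum came from PNPLA2 alone. As a mean of log2 CPM, the synthesis side exceeded the breakdown side by 0.02 ± 0.05 in control and by 0.40 ± 0.03 in formononetin libraries (SD, n = 3). The median log2 fold change was 0.24 for the synthesis genes and -0.13 for the lipases, the latter being the midpoint of values of opposite sign. Transcript levels say nothing of the rates of synthesis or lipolysis, which were not measured here.

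**Figure D4:**
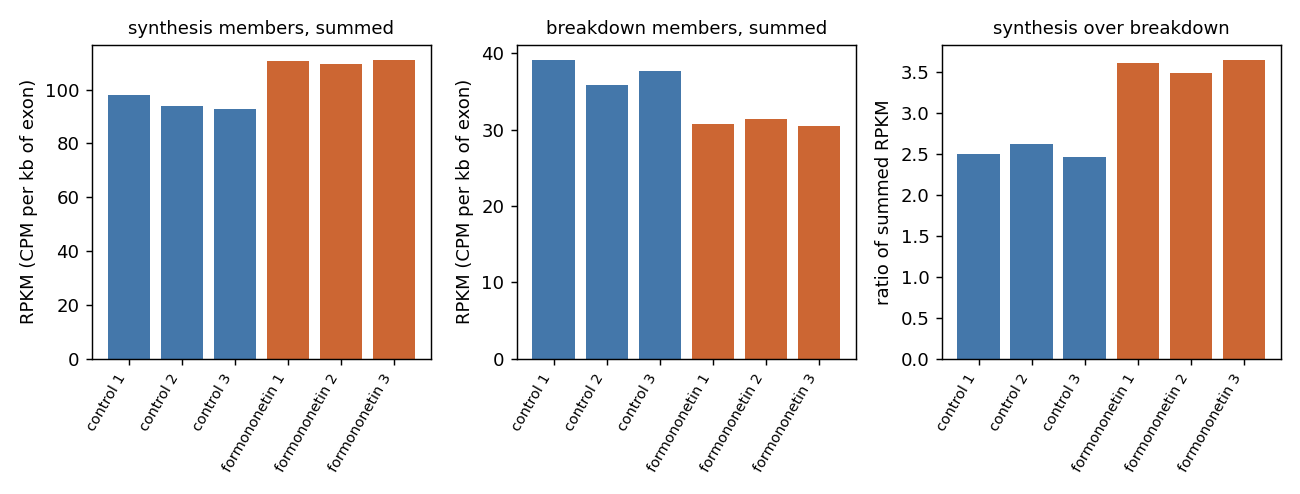
Summed RPKM of the 8 synthesis genes (left), of the 2 lipases (middle) and the ratio of the sums (right) in each of the 6 libraries. The ratio lies between 2.46 and 2.61 in control and between 3.49 and 3.65 in formononetin libraries. Lipases outside the members are not included.

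Of 15 listed acyltransferases and phosphatases outside the members 13 were tested, 4 rose and none fell (median 0.15, against -0.01 over all genes). Of all genes tested 12.0% were raised and 8.71% lowered. Beside GPAT3 and GPAT4 these were MOGAT2, which acylates monoacylglycerol (27.7 ± 0.482 to 38.8 ± 5.88 CPM, 0.49 ± 0.11, adjusted p = 0.0184), and LPGAT1 (0.21 ± 0.05). The call of MOGAT2 was lost on leaving out control replicate 2 or 3 (highest adjusted p 0.0616), and the count fell to 2 without control replicate 3.

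In the supply of glycerol-3-phosphate and fatty acyl-CoA 6 of 15 genes rose and 2 fell (median 0.25). Among all genes tested 12.0% and 8.71% did so. GPD1, which makes glycerol-3-phosphate from a glycolytic intermediate, rose most, from 7.83 ± 1.09 to 24.9 ± 0.558 CPM (1.67 ± 0.11, adjusted p = 0.000214). GK, the kinase that makes the same compound from free glycerol, fell from 109 ± 3.87 to 75.9 ± 1.16 CPM (-0.52 ± 0.05, adjusted p = 0.000560). The fatty acid transport and activation genes SLC27A2 (0.92 ± 0.07) and SLC27A4 (0.72 ± 0.06) rose, while ACSL4, an acyl-CoA synthetase that prefers arachidonate, fell slightly (-0.19 ± 0.04). The call of ACSL4 was lost in 5 settings, among them leaving out control replicate 3, formononetin replicate 2 or formononetin replicate 3 (highest adjusted p 0.0636). Raised supply genes numbered 3 without formononetin replicate 2, with a replicate block or under upper quartile scaling.

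Phosphatidic acid and diacylglycerol also feed phospholipids. In that branch 7 of 19 genes rose and none fell (median 0.06), where 12.0% and 8.71% of all genes tested did so. CRLS1, the cardiolipin synthase gene, rose most of those named (64.2 ± 5.21 to 100.4 ± 3.27 CPM, 0.65 ± 0.07, adjusted p = 0.000948). PEMT, which methylates phosphatidylethanolamine, changed by 0.44 ± 0.10 and PTDSS1, a phosphatidylserine synthase gene, by 0.40 ± 0.05. The call of PEMT was lost on leaving out control replicate 1, control replicate 2, formononetin replicate 1 or formononetin replicate 3 (highest adjusted p 0.0781). Raised genes of this branch numbered 3 without control replicate 2 or formononetin replicate 1, and 4 without formononetin replicate 2 or under upper quartile scaling, where 3 fell.

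Other lipases did not follow PNPLA2. Of 13 listed genes 9 were tested, 4 rose and none fell (median 0.66), where 12.0% and 8.71% of all genes tested did so. Raised genes of this list numbered 3 under upper quartile scaling, with no low-count filter and without any 1 library except control replicate 1. The call lost in these settings was that of ABHD6 (0.66 ± 0.17, adjusted p = 0.0356 with all libraries). LIPA, the acid lipase of lysosomes, rose from 59.1 ± 2.60 to 167 ± 4.87 CPM (1.49 ± 0.05, adjusted p = 1.16e-05). CES1, a carboxylesterase of the liver endoplasmic reticulum, rose from 407 ± 4.81 to 654 ± 16.1 CPM (0.68 ± 0.04, adjusted p = 9.99e-05), and ABHD12, a lysophospholipid lipase gene, from 36.8 ± 4.70 to 63.4 ± 1.04 CPM (0.79 ± 0.09). LIPE, the hormone-sensitive lipase of adipose tissue, had 3, 2 and 0 counts in control and 0 in all formononetin libraries, too few to compare. Among the regulators of PNPLA2 none of the 3 tested was called (median 0.13). Its activator ABHD5 was at 8.43 ± 1.22 and 9.19 ± 1.14 CPM (0.13 ± 0.15, adjusted p = 0.606). Its inhibitor G0S2 had 0 counts in every control library and 3, 0 and 7 in formononetin libraries.

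Of 17 lipid droplet genes 15 were tested, 7 rose and 1 fell (median 0.23), where 12.0% and 8.71% of all genes tested did so. PLIN2, the main droplet coat protein of hepatocytes, rose from 807 ± 29.1 to 1122 ± 20.3 CPM (0.48 ± 0.04, adjusted p = 0.000478). RAB18, a GTPase of droplets, changed by 0.47 ± 0.11 (adjusted p = 0.0204), a call lost when any 1 control library or formononetin replicate 1 or 3 was left out (highest adjusted p 0.0726). BSCL2, the seipin gene, changed by 0.69 ± 0.17 (adjusted p = 0.0287), a call lost with a replicate block and on leaving out control replicate 2, control replicate 3, formononetin replicate 2 or formononetin replicate 3 (highest adjusted p 0.0908). It had 265, 243 and 209 counts in control and 403, 524 and 508 in formononetin libraries. The readthrough model HNRNPUL2-BSCL2, which shares 1610 of its 3965 exon bases on the same strand, went the other way with 326, 247 and 259 against 113, 60 and 111 counts, so the split of reads between them is uncertain. CIDEC, a droplet fusion protein gene named here after its values were seen, had a lower level and rose from 3.27 ± 0.307 to 11.6 ± 2.22 CPM (1.83 ± 0.16, adjusted p = 0.000561). The lowered gene was PLIN5, at 2.97 ± 0.947 and 1.49 ± 0.282 CPM (-1.0 ± 0.28, adjusted p = 0.0423), also named after its values were seen, and its call was lost in 7 settings. Raised droplet genes numbered 3 without the third control or the third formononetin library, and 4 without control replicate 1, control replicate 2 or formononetin replicate 2.

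Of 7 genes for triglyceride export 2 rose and 1 fell (median 0.25), where 12.0% and 8.71% of all genes tested did so. With so few genes these counts are not read as a result about the list. MTTP, which loads lipid onto apolipoprotein B, rose from 53.1 ± 1.80 to 80.0 ± 4.23 CPM (0.59 ± 0.06, adjusted p = 0.000775), and SAR1B, which forms the vesicles for such large particles, changed by 0.37 ± 0.04 (adjusted p = 0.00151). APOB was at 25683 ± 344 and 23544 ± 360 CPM (-0.13 ± 0.03, adjusted p = 0.0314), a call lost in 8 of its 18 alternatives, 4 of them on leaving out control replicate 2, control replicate 3, formononetin replicate 1 or formononetin replicate 2 (highest adjusted p 0.156).

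**Figure D5:**
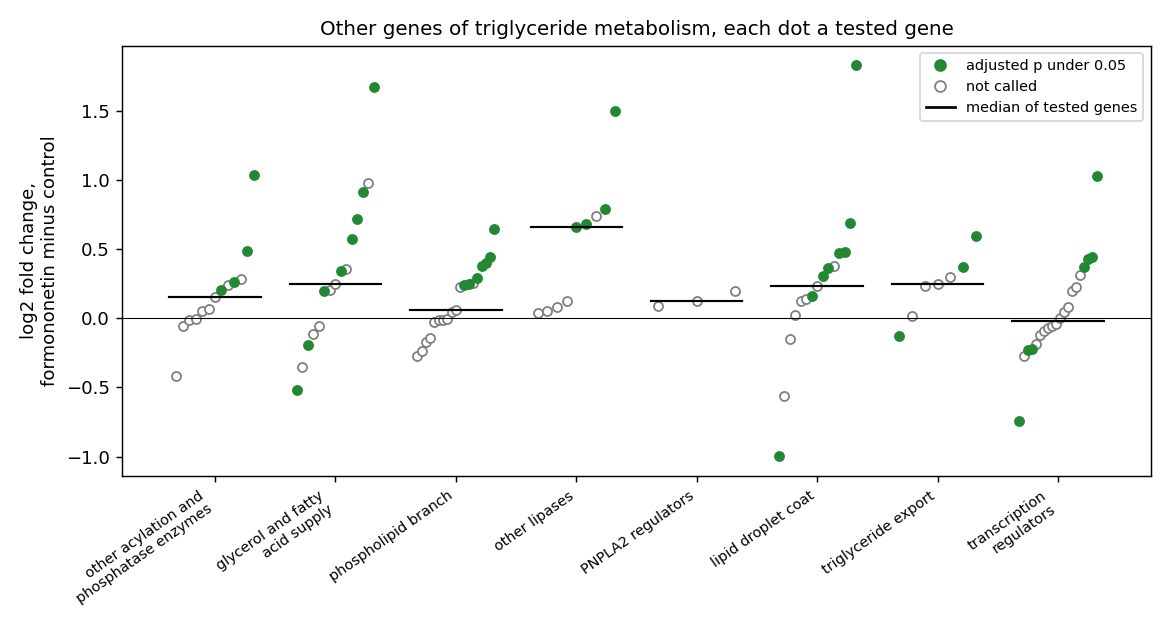
Log2 fold change of formononetin against control (vertical axis) for the tested genes of 8 related lists, 1 dot per gene, filled where the adjusted p was under 0.05, with a bar at each list's median. The highest dots are CIDEC, GPD1 and LIPA, and the medians run from -0.02 for transcription regulators to 0.66 for the other lipases.

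Of 20 tested transcription regulators of these genes 4 rose and 3 fell (median -0.02), where 12.0% and 8.71% of all genes tested did so. These counts are not read as a result about the list. SREBF1, which encodes SREBP-1, an activator of GPAM and PNPLA3, rose from 63.6 ± 1.84 to 82.0 ± 2.81 CPM (0.37 ± 0.05, adjusted p = 0.00264). MLXIPL, which encodes the carbohydrate-response factor ChREBP, was not called (185 ± 8.51 against 163 ± 12.3 CPM, -0.19 ± 0.07, adjusted p = 0.0858). PPARGC1B, a coactivator, rose most (7.56 ± 0.884 to 15.4 ± 0.760 CPM, 1.02 ± 0.11), and HNF4A (0.44 ± 0.09) and CEBPA (0.43 ± 0.06), factors of the hepatocyte programme, also rose. NR1H4, the bile acid receptor FXR, fell from 77.7 ± 2.36 to 46.6 ± 3.17 CPM (-0.74 ± 0.06, adjusted p = 0.000486). FOXO1, a fasting factor known to activate PNPLA2, fell (73.1 ± 3.71 to 62.7 ± 1.3 CPM, -0.22 ± 0.05, adjusted p = 0.0272), as did the coactivator PPARGC1A (-0.23 ± 0.06, adjusted p = 0.0265). Both calls were lost in 8 settings, including leaving out control replicate 2 or 3 or any 1 formononetin library (adjusted p up to 0.0900 for FOXO1 and 0.0853 for PPARGC1A). In 8 settings 1 gene of this list was lowered in place of 3.

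The genes whose pattern over the 6 libraries lay nearest to that of AGPAT2 were MISP, PASK and SPC24, by Euclidean distance between log2 CPM values centred on each gene's mean (0.139, 0.210 and 0.218, out of 10329 genes averaging at least 3 in log2 CPM). Their log2 fold changes were 0.84 ± 0.13, 0.81 ± 0.09 and 0.93 ± 0.13. These follow from the choice by likeness to AGPAT2 and are given as a description.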

How the data were processed

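Whole-number counts per gene, deposited by the authors without normalization, were used for 3 control and 3 formononetin libraries. Per the submitters' processing notes the genome was GRCh38 and STAR 2.5.3a and StringTie 1.3.1c were used. Which program counted reads, with what strand setting and annotation, is not given in the sources used here. The 2165 assembled loci without a gene name (3.82 to 5.62% of counts) were left out. Symbols came from a gene name table (60295 identifiers matched), and coordinates and exon lengths from GENCODE 29 (GRCh38).

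After filterByExpr 22230 genes remained. Libraries were scaled by TMM and compared with edgeR 4.0.16 (R 4.3.3), by a two-sided quasi-likelihood test with no covariate. P-values were adjusted over all genes, and intervals of fold changes use 7.35 degrees of freedom. Standard errors were derived from F and the fold change. The test was tried on simulated counts, with 50 genes at each size of change. It called 45 genes at a log2 fold change of 1, 30 at -1, 13 at 0.5 and 14 at -0.5. Changes of 0.5 were thus mostly missed in that trial, and a gene not called may still have changed. Whether the same share holds at the levels of the 10 members was not tested. For the members not called, the 95% intervals were -0.20 to 0.01 (LPIN2), -0.24 to 0.11 (DGAT1) and 0.01 to 0.49 (PNPLA3). Members and lists were chosen with earlier results of these data known, so no test was made over a list. Named were all members, up to 3 called genes per list and direction averaging at least 3 in log2 CPM, and 7 genes set by name (PLIN2, G0S2, ABHD5, SREBF1, MLXIPL, PPARGC1A, LIPE), and the 3 genes nearest in pattern to the called member with the largest change. Genes outside this rule are LPGAT1, LPIN3, GPAT2, AGPAT4, AGPAT5, ABHD6, INSIG1, CIDEC, PLIN5, the cell markers and genes that share exons. Alternatives were DESeq2 1.42.0, limma 3.58.1 voom, other scalings and filters, a replicate block, and omission of single libraries. Chosen after seeing the data were the assembled loci kept in, overlapping genes summed, and genes with over 4-fold spread in a group dropped.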

Additional observations from a re-analysis of the deposited data

How the results depend on the processing

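Leaving out 1 library gave 4 to 6 raised and 1 lowered member, 1703 to 2189 raised and 1272 to 1478 lowered genes, and a difference between the synthesis and breakdown medians of 0.33 to 0.42 against 0.37 with all libraries, the highest without control replicate 2. The lowest count of raised genes came without formononetin replicate 3 and that of lowered genes without control replicate 3; fewer samples entered each of these fits. DGAT1 ran from -0.11 to 0.0088 when 1 library was left out, reversing without control replicate 1. Upper quartile scaling gave 4 raised and 2 lowered members, LPIN2 being added. The correlation of same-numbered deviations was -0.00206, 0.00916 and -0.0218, and that of differently numbered ones ran from -0.0141 to 0.0164. These values show no sign of pairing by replicate number, but with 3 libraries per group they cannot exclude it. With a replicate block 4 members were raised and 1 lowered, the calls of LPIN1 and DGAT2 being lost, and 1921 genes were raised and 1362 lowered. Summing overlapping genes gave 7 raised members, PNPLA3 being added. In that sum SAMM50 brought 1581 to 2866 counts per library and PNPLA3 itself 916 to 1514, so the row was mostly SAMM50. The 2 genes share only 148 of the 3232 exon bases of PNPLA3. The cause of these changes was not tested.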

Other observations

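INSIG1, which encodes an anchor of SREBP in the endoplasmic reticulum, was listed at 0 counts in all 6 libraries, so the count table gives no value for this arm of SREBP control. LYZ, used here as a macrophage marker, was at 1234 ± 48.6 CPM in control while PTPRC was at 0 counts.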
